A study of Mus musculus with 4 samples.

Results

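Transcript counts of p53 target genes were examined cell by cell in the thoracic aorta of mice. The 10 genes were Cdkn1a, Mdm2, Ccng1, Phlda3, Trp53inp1, Zmat3, Bax, Gadd45a, Gadd45b and Ddit4l, chosen by name from the 17524 gene symbols in the files, where all 10 were present. For each of them the unique molecular identifiers (UMIs, 1 per captured transcript) were summed per library over smooth muscle cells (SMC), fibroblasts and phagocytes, each picked by a simple marker gate. Levels are counts per 1000000 UMIs of the gate (CPM).

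The study asked what the DNA-sensing adaptor STING contributes in the aorta with and without angiotensin II (AngII), a hormone that narrows vessels and makes blood pressure climb. The 4 libraries were mice labelled as a whole-body Sting knockout with AngII (KO AngII), the same knockout with saline (KO saline), wild type with AngII (WT AngII) and wild type with saline (WT saline). AngII mice were infused for 7 days and had eaten a high fat diet for 5 weeks, and saline mice ate a normal diet, so infusion and diet cannot be told apart. Every group was 1 library made from 3 pooled mice, and neither age, sex nor strain background is stated. With 1 library per group no test across animals was possible. All intervals are 95% intervals for counting error only, and differences between mice or library preparations are not in them.

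p53, encoded by Trp53, is a transcription factor that is kept low in unstressed cells by the ubiquitin ligase Mdm2 and accumulates after DNA damage and other stresses. It binds a pair of short half-sites in DNA and raises transcription of genes that stop the cell cycle, repair DNA, alter survival or shut p53 off again. Mdm2 is itself such a target, which closes a feedback loop. In arteries, p53 and the cell cycle inhibitor p21 (Cdkn1a) are known for restraining smooth muscle proliferation and for their part in senescence. Several of the 10 genes also answer to other signals, for example Gadd45b to NF-kappaB and TGF-beta.

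Exact matches to the consensus p53 half-site were looked for on both strands of the RefSeq promoter windows (GRCm38.p6, 250 bases before to 50 after the gene start), to show the letters that p53 can read next to these genes. A window was present for 8 of the 10 genes, and 6 of the 8 held at least 1 exact half-site, against 9.55% of 27025 genes with a window. The sequences are shown because they differ in how much of the full element they carry. Each runs 5′ to 3′ on the gene's strand, with half-sites in capitals.
Cdkn1a, chr17:29090908-29090967, + strand: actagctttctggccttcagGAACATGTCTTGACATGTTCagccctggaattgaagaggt
Ccng1, chr11:40755442-40755501, - strand: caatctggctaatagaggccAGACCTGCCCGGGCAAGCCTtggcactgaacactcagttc
Mdm2, chr10:117710910-117710969, - strand: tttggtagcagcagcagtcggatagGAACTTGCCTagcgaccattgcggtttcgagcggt
Bax, chr7:45467065-45467124, - strand: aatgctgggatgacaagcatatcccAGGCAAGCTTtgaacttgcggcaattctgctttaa
Gadd45a, chr6:67037413-67037472, - strand: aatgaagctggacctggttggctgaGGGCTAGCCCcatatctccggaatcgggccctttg
Ddit4l, chr3:137623557-137623616, + strand: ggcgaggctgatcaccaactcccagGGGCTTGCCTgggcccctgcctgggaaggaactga

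Cdkn1a and Ccng1 held a pair, defined as an exact half-site with another of at most 1 mismatch within 13 bases, and both printed pairs are directly joined. Cdkn1a held 2 pairs by this rule, since a further exact half-site, which begins just before the printed stretch, lies within 13 bases of the first one printed. Such a pair occurred in 0.627% of 32851 windows, and an exact half-site in 8.36% of them. Mdm2, Bax, Gadd45a and Ddit4l held a lone half-site. No exact half-site was in the windows of Phlda3 and Gadd45b or in the second window of Cdkn1a, which has a pair of annotated starts. A match is only a match of letters, and the known p53 elements of Mdm2 and Gadd45a, for instance, lie in introns outside these windows.

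The kept cells numbered 8496 in KO AngII, 12024 in KO saline, 8475 in WT AngII and 9242 in WT saline, and the AngII libraries were deeper. Median UMIs per deposited cell were 9294 in KO AngII, 6071 in KO saline, 9938 in WT AngII and 5888 in WT saline. The SMC gate (at least 3 Myh11 UMIs) held 5660 in KO AngII, 10350 in KO saline, 5889 in WT AngII and 7546 in WT saline. The fibroblast gate (at least 10 Dcn and Lum UMIs, at most 1 Myh11 UMI) held 1879 in KO AngII, 506 in KO saline, 1696 in WT AngII and 1021 in WT saline, with median UMIs per cell of 11779 in KO AngII, 3874.5 in KO saline, 9153.5 in WT AngII and 3608 in WT saline. The phagocyte gate (at least 10 Lyz2, C1qa and C1qb UMIs, under 10 Dcn and Lum UMIs) held 559 in KO AngII, 83 in KO saline, 705 in WT AngII and 285 in WT saline. In each library the marker lists fixed for smooth muscle, fibroblasts and phagocytes were highest in the gate of their own name. The phagocyte gate was not pure: between 11.9% and 21.7% of its cells also had at least 3 Myh11 UMIs, and the smooth muscle transcript Acta2 reached 15.6% to 17.4% of its SMC level there, against 1.99% to 7.06% once the gates excluded each other. In the fibroblast gate it reached 3.49% to 12%, highest in KO saline. Pairs of libraries shared 92 to 148 cell barcodes, and doublets were not removed.

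WT saline stood apart from the other libraries. Its 9 glucocorticoid-response genes summed to 7802 CPM in the SMC gate, while the sum was 1889 CPM in KO AngII, 1802 in KO saline and 1346 in WT AngII. Fkbp5, a gene widely used as a marker of glucocorticoid action, was at 53.4 CPM there and between 3.68 and 5.55 CPM in the other libraries. In the fibroblast gate the list stood at 11618 in WT saline and between 3391 and 3943 in the others, and in phagocytes at 3808 against 1655 to 2407. The part of this state of WT saline in the results below was not tested; KO AngII over KO saline and KO AngII over WT AngII do not use that library.

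Transcripts of the targeted gene, Tmem173 (chromosome 18), were still present in the libraries labelled Sting-KO, at levels under those of WT by less than 1.5-fold. Over the whole library it was at 6.11 CPM in KO AngII, 1.33 in KO saline, 7.04 in WT AngII and 1.75 in WT saline. The 3′ tag counts whatever transcript remains, and the labels do not say which stretch of the gene was altered, so these values do not check the genotype. KO below means the libraries labelled Sting-KO. Transcripts of p53 itself (Trp53) stood at 37.3 CPM in the SMC gate in KO AngII, 42.8 in KO saline, 29.3 in WT AngII and 31.5 in WT saline, and no library pair was 1.5-fold apart in that gate.

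**Figure D1:**
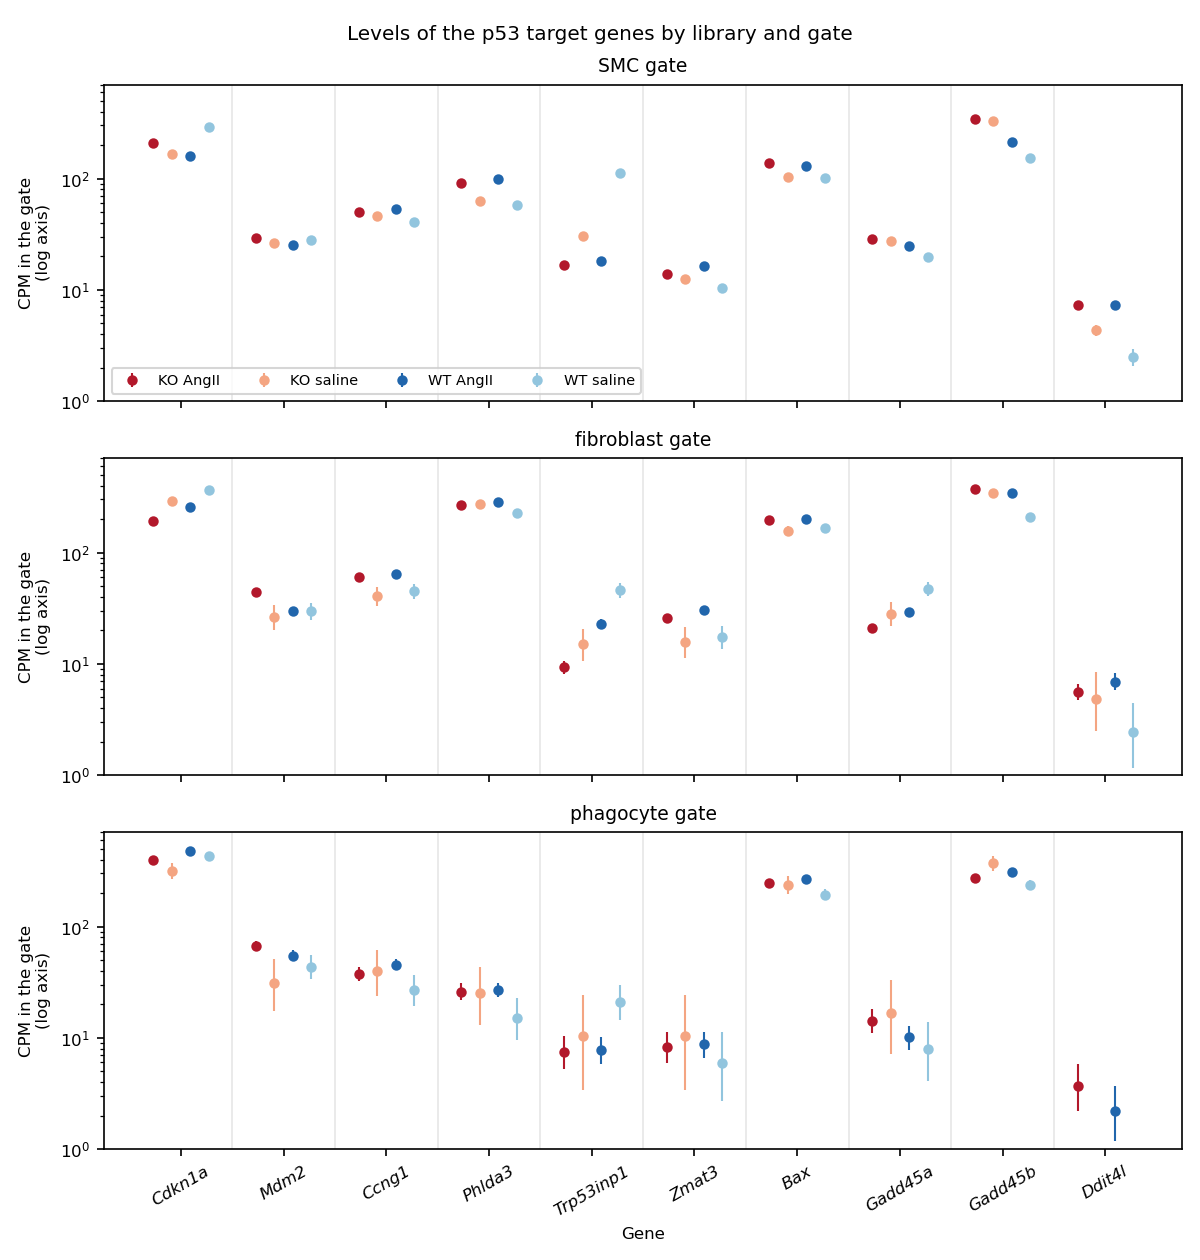
Level of each of the 10 genes in CPM of the gate (log axis), by gate (panels) and library (colours), each point 1 library with its 95% Poisson interval. Cdkn1a and Trp53inp1 were highest in WT saline in the SMC and fibroblast gates, Gadd45b was lowest there, and Ddit4l had 0 UMIs in the phagocyte gate of both saline libraries, which is not drawn.

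Each gate had its own balance of the genes. Cdkn1a, which encodes the cyclin-dependent kinase inhibitor p21, was highest in phagocytes in every library, with 398 CPM in KO AngII, 315 in KO saline, 479 in WT AngII and 432 in WT saline. Bax, which encodes a pore-forming protein of the mitochondrial death pathway, was also highest there, with 246 in KO AngII, 238 in KO saline, 266 in WT AngII and 193 in WT saline (CPM). Phlda3, which encodes a lipid-binding inhibitor of the kinase Akt, was instead highest in the fibroblast gate. It stood there at 265 CPM in KO AngII, 270 in KO saline, 286 in WT AngII and 225 in WT saline, and in the phagocyte gate at 26.0 in KO AngII, 25.0 in KO saline, 27.1 in WT AngII and 15.1 in WT saline. Ddit4l, an inhibitor of the growth kinase mTORC1, was scarce, with at most 7.28 CPM in any gate. In phagocytes it gave 18 UMIs in KO AngII and 14 in WT AngII and none in KO saline or WT saline. Its 3.72 CPM in KO AngII lay under the level of 6.25 CPM that the floor of 3 UMIs stands for in KO saline, so no fold is given there. In WT AngII it was at 2.18 CPM, beside a floor of 1.97 CPM in WT saline.

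AngII was compared with saline within each genotype, first in the SMC gate. A gene was counted where it was at least 1.5-fold apart, with at least 50 UMIs over both libraries and, in the higher one, at least 10% of its highest gate level. Of the 10 genes, 3 were counted higher and 2 lower in WT AngII, beside 10.6% and 16.9% of all 12039 genes that met these minimums. In KO AngII 1 was higher and 1 lower, beside 8.69% and 19.1% of 12192 genes. The median log2 ratio of the 10 genes was 0.15 in KO and 0.37 in WT. That of all genes that met these minimums was −0.18 in KO and −0.13 in WT. Another scaling (TMM) would add 0.15 to every KO ratio and 0.10 to every WT ratio in this gate.

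Trp53inp1, which encodes a stress protein that promotes p53 phosphorylation and autophagy, showed the widest spread. The SMC gate had 16.6 CPM in KO AngII, 30.5 in KO saline, 18.3 in WT AngII and 112 in WT saline. WT saline was high and both AngII libraries were low, with overlapping intervals between the AngII libraries. AngII over saline was −0.88 on the log2 scale in KO (interval −0.99 to −0.77) and −2.62 in WT (−2.71 to −2.53), a 6.13-fold lower level in WT AngII. In KO the difference fell under 1.5-fold when every cell was thinned to 2000 UMIs (−0.49) or weighed equally (−0.55), while in WT it stayed between −2.73 and −2.50 under every alternative run. The glucocorticoid list moved with the WT value, as given above.

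Cdkn1a was higher with AngII in KO and lower in WT, and this difference between genotypes was not tested. It had 209 CPM in the SMC gate in KO AngII and 167 in KO saline, and 161 in WT AngII and 291 in WT saline. The level in WT saline was the highest and those in KO saline and WT AngII had overlapping intervals. The log2 ratio of AngII over saline was 0.32 in KO (0.29 to 0.36) and −0.85 in WT (−0.89 to −0.82). The WT value uses WT saline, whose glucocorticoid list is given above.

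Phlda3 was higher with AngII in both genotypes of the SMC gate. It stood at 91.5 CPM in KO AngII against 63.2 in KO saline, and at 98.9 in WT AngII against 57.3 in WT saline, and both AngII libraries lay above both saline libraries. The log2 ratio was 0.53 in KO (0.48 to 0.59), just under 1.5-fold, and 0.79 in WT (0.72 to 0.85). Under the alternatives run it lay between 0.21 and 0.71 in KO and between 0.74 and 0.90 in WT. Of SMC thinned to 2000 UMIs, 12.2% had a Phlda3 UMI in KO AngII and 11.2% in KO saline, with overlapping intervals. In WT the shares were 16.1% with AngII and 9.87% with saline. Ddit4l stood at 7.28 CPM in KO AngII and 4.34 in KO saline, and at 7.24 in WT AngII and 2.48 in WT saline. Its log2 ratio was 0.75 in KO (0.53 to 0.96) and 1.55 in WT (1.27 to 1.84), but in KO it was −0.06 in cells thinned to 2000 UMIs, where 49 KO AngII and 94 KO saline cells had a Ddit4l UMI, and 0.51 with cells weighing equally. Zmat3, an RNA-binding zinc finger protein, stood at 13.7 CPM in KO AngII and 12.4 in KO saline, and at 16.5 in WT AngII and 10.5 in WT saline. Only the WT ratio, 0.66 (0.51 to 0.81), passed 1.5-fold; in KO it was 0.15.

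The feedback and death genes were less than 1.5-fold apart in smooth muscle, and Mdm2 was nearly level. Mdm2 had 29.5 CPM in KO AngII, 26.6 in KO saline, 25.5 in WT AngII and 27.9 in WT saline, and neighbouring libraries in that order of levels had overlapping intervals throughout. Its log2 ratio of AngII over saline was 0.15 in KO and −0.13 in WT. Ccng1, which encodes cyclin G1, a partner of Mdm2 and the phosphatase PP2A, had ratios of 0.13 in KO and 0.38 in WT, and Bax had 0.41 (0.36 to 0.45) in KO and 0.36 (0.31 to 0.41) in WT. Under the alternatives run the Bax ratio lay between 0.20 and 0.58 in KO and between 0.29 and 0.47 in WT. Bax stood at 138 CPM in KO AngII, 104 in KO saline, 129 in WT AngII and 101 in WT saline. Both AngII libraries lay above both saline libraries for Bax and for Ccng1. Among the Gadd45 genes, which encode small stress proteins that bind cell cycle and MAP kinases, Gadd45a had log2 ratios of 0.07 in KO and 0.34 in WT. Gadd45b had 346 CPM in KO AngII and 329 in KO saline, and 215 in WT AngII and 152 in WT saline. Its ratio was 0.07 in KO and 0.50 in WT, and with TMM scaling the WT value reached 0.61 and passed 1.5-fold.

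**Figure D2:**
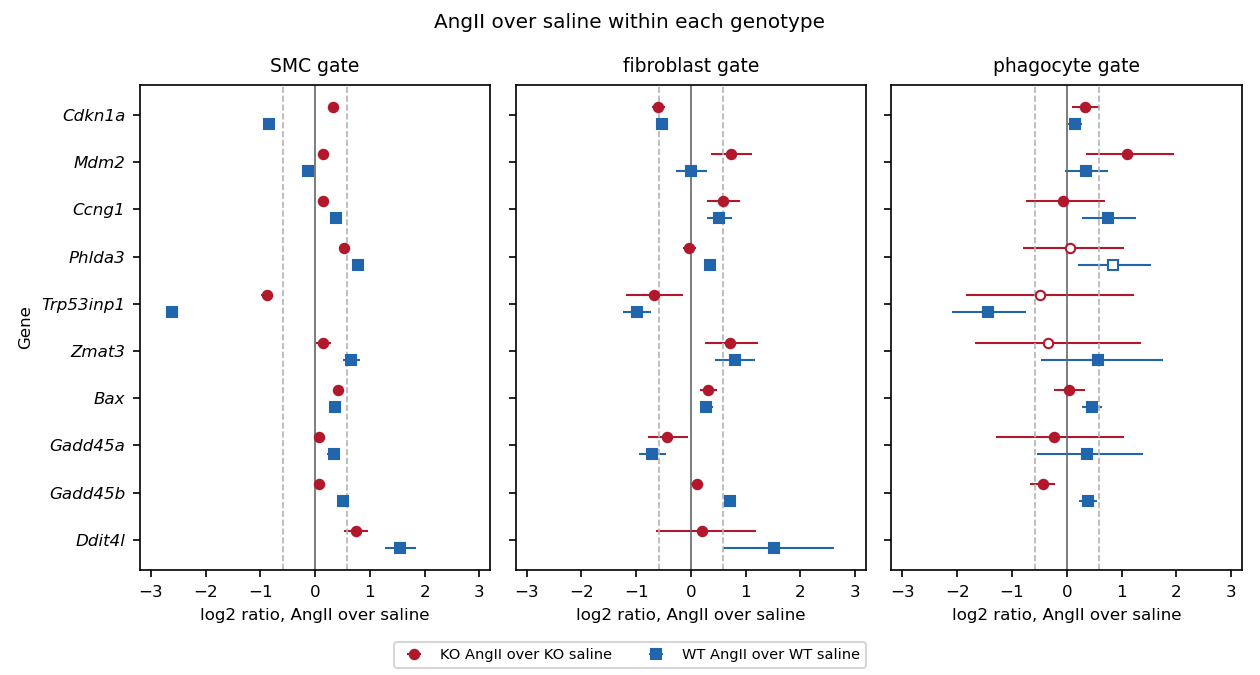
Log2 ratio of AngII over saline for each gene (rows) within KO and within WT, by gate (panels), with 95% counting intervals; dashed lines mark 1.5-fold and open symbols are genes under the count or level minimum. In the SMC gate Trp53inp1 lay at −0.88 in KO and −2.62 in WT and Cdkn1a at 0.32 in KO and −0.85 in WT, while Mdm2 lay within 0.15 of 0.

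In the fibroblast gate 2 of the 10 genes were counted higher and 2 lower in KO AngII than in KO saline, beside 14.0% and 29.5% of 10891 genes. In WT AngII 3 were higher and 2 lower than in WT saline, beside 14.6% and 21.2% of 10825 genes. These ratios depend on scaling more than those of smooth muscle, since TMM would add 0.31 to every KO ratio and 0.17 to every WT ratio. The smooth muscle list stood at 2284 CPM in this gate in KO AngII, 5568 in KO saline, 1300 in WT AngII and 1728 in WT saline, and its part in the results was not tested.

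Zmat3 was higher with AngII in fibroblasts of both genotypes. It had 25.9 CPM in KO AngII and 15.8 in KO saline, and 30.5 in WT AngII and 17.5 in WT saline. Both AngII libraries lay above both saline libraries, with log2 ratios of 0.72 in KO (0.25 to 1.22) and 0.80 in WT (0.44 to 1.18). Ccng1 was at 60.6 CPM in KO AngII and 40.4 in KO saline, and at 63.8 in WT AngII and 44.7 in WT saline. Its ratios of 0.58 (0.29 to 0.89) in KO and 0.51 (0.29 to 0.75) in WT both fell just short of 1.5-fold. Mdm2 was high in 1 library: it had 43.8 CPM in KO AngII and 26.3 in KO saline, and 29.7 in WT AngII and 29.6 in WT saline; KO AngII was high and the other libraries overlapped. Its log2 ratio was 0.74 in KO (0.37 to 1.12) and 0.00 in WT (−0.28 to 0.30). Of the 1078 Mdm2 UMIs in KO AngII fibroblasts, 47 came from a single cell.

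Cdkn1a was lower with AngII in fibroblasts of both genotypes. The levels were 191 CPM in KO AngII and 289 in KO saline, and 254 in WT AngII and 368 in WT saline, and no neighbouring intervals overlapped. The log2 ratio was −0.60 in KO (−0.71 to −0.48) and −0.53 in WT (−0.62 to −0.45). Only the KO value was past 1.5-fold, and 6 of its alternatives took it back under, for example −0.28 with TMM scaling and −0.26 with cells weighing equally. Trp53inp1 had 9.34 CPM in KO AngII and 14.9 in KO saline, and 23.0 in WT AngII and 45.7 in WT saline. WT saline was highest and KO AngII lowest, and the ratios were −0.68 in KO (−1.18 to −0.14; −0.37 with TMM scaling) and −0.99 in WT (−1.24 to −0.73).

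The Gadd45 pair split in WT fibroblasts. Gadd45a had 29.0 CPM in WT AngII and 47.1 in WT saline, a log2 ratio of −0.70 (−0.94 to −0.46) that TMM scaling brought to −0.53. Gadd45b had 345 CPM in WT AngII and 211 in WT saline, a ratio of 0.71 (0.61 to 0.82) that was 0.51 without cells under 4000 UMIs. In KO the ratios were −0.43 for Gadd45a and 0.10 for Gadd45b. Ddit4l stood at 6.93 CPM in WT AngII (124 UMIs) and 2.43 in WT saline (10 UMIs), a ratio of 1.51 (0.59 to 2.61). Phlda3 had ratios of −0.03 in KO and 0.35 in WT, and Bax of 0.32 in KO and 0.28 in WT.

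In phagocytes fewer genes had enough UMIs: 6 of the 10 in KO and 8 in WT. Of these, 1 was higher and none lower in KO AngII, beside 16.4% and 15.9% of 7344 genes, and 1 was higher and 1 lower in WT AngII, beside 13.2% and 16.1% of 8514 genes. Mdm2 had 67.1 CPM in KO AngII (325 UMIs) and 31.3 in KO saline (15 UMIs), and 54.9 in WT AngII and 43.2 in WT saline. Its log2 ratio was 1.10 in KO (0.36 to 1.96) and 0.34 in WT. Trp53inp1 was again highest in WT saline, at 21.0 CPM against 7.77 in WT AngII, a ratio of −1.43 that shrank to −0.33 when the gates excluded each other. Ccng1 was at 45.4 CPM in WT AngII and 26.9 in WT saline, a ratio of 0.76 that became −0.17 in cells thinned to 2000 UMIs. Gadd45b had 273 CPM in KO AngII and 371 in KO saline, and 311 in WT AngII and 238 in WT saline, with ratios of −0.44 in KO (−0.67 to −0.21) and 0.39 in WT (0.23 to 0.55).

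KO was then compared with WT under each infusion. This sets libraries labelled by genotype against each other, 1 per group, and does not isolate the loss of STING. In the SMC gate under saline 2 of the 10 genes were higher and 2 lower in KO, beside 6.62% and 5.59% of 11960 genes. Gadd45b was 2.17-fold higher in KO saline, with a log2 ratio of 1.12 (1.08 to 1.15), and Ddit4l had a ratio of 0.81 (0.51 to 1.11). Trp53inp1 was 3.68-fold lower, a ratio of −1.88 (−1.95 to −1.81), and Cdkn1a had a ratio of −0.80 (−0.83 to −0.76). All of these set KO saline against WT saline, the library with the high glucocorticoid list.

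With AngII the same gate held 1 gene of the 10 past 1.5-fold, which was higher, beside 4.87% higher and 5.18% lower of 12095 genes. That gene was Gadd45b, with a log2 ratio of KO AngII over WT AngII of 0.69 (0.66 to 0.72), and both KO libraries lay above both WT libraries for it. The immediate early list, genes that switch on within minutes of stimulation and of tissue digestion, also stood higher in the KO libraries: 12084 CPM in KO AngII, 15481 in KO saline, 8416 in WT AngII and 10911 in WT saline. The heat shock list stood at 7545 in KO AngII, 4038 in KO saline, 3503 in WT AngII and 4754 in WT saline. The part of these lists in the Gadd45b difference was not tested. Cdkn1a had a ratio of 0.37 and Mdm2 of 0.21 in this comparison, Trp53inp1 of −0.14 and Zmat3 of −0.27.

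The fibroblast gate showed Trp53inp1 lower in KO under both infusions. It had a log2 ratio of −1.30 in KO AngII over WT AngII (−1.54 to −1.06) and of −1.61 in KO saline over WT saline (−2.16 to −1.10). It was the single gene of the 10 past 1.5-fold with AngII, where 6.31% of 11462 genes were higher and 14.8% lower. Under saline, where 9 of the 10 genes had enough UMIs, 1 was higher and 2 were lower, beside 10.9% and 9.78% of 8640 genes. Beside Trp53inp1 these were Gadd45b, with a ratio of 0.71 (0.52 without cells under 4000 UMIs), and Gadd45a, with −0.74 (−0.53 without them). Mdm2 had a ratio of 0.56 with AngII and −0.17 under saline, and Cdkn1a had −0.41 with AngII and −0.35 under saline.

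Among phagocytes none of 8 genes was 1.5-fold apart between KO AngII and WT AngII, where 3.90% of 9178 genes were higher and 6.52% lower. Under saline 1 of 5 was higher in KO, beside 7.93% higher and 12.1% lower of 4541 genes. It was Gadd45b, with a ratio of 0.64 (0.37 to 0.90) that was 0.57 once the gates excluded each other. The KO saline side of this comparison is 83 cells.

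**Figure D3:**
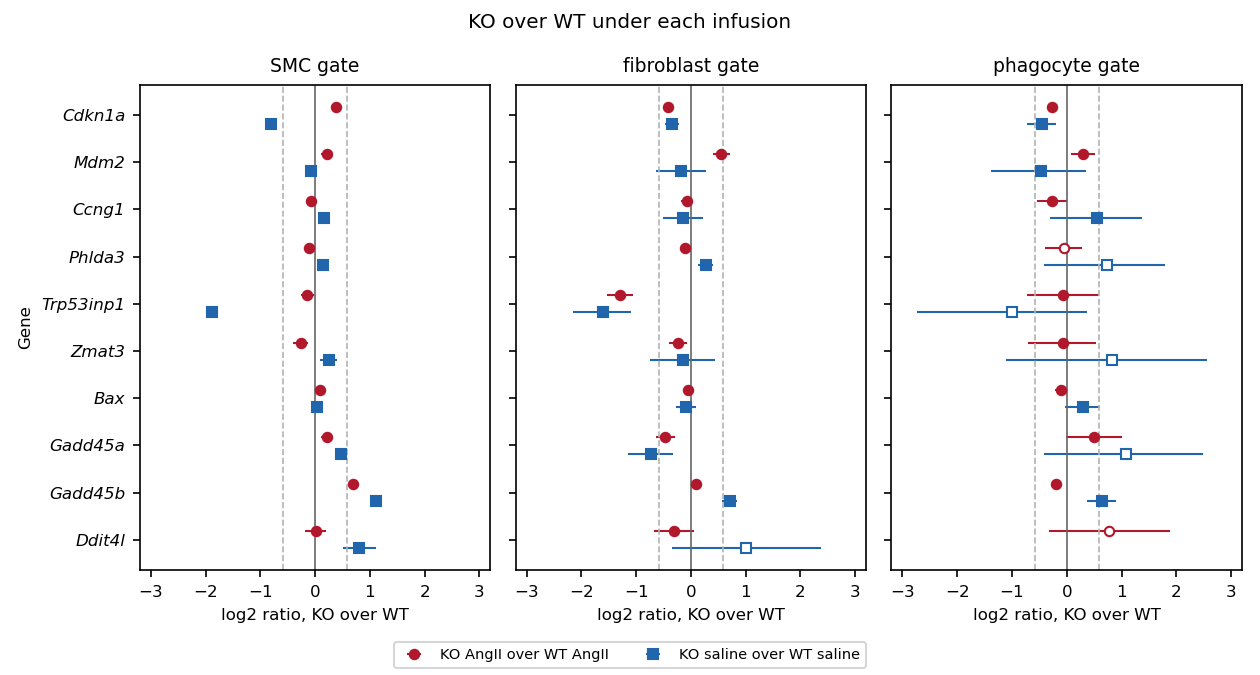
Log2 ratio of KO over WT for each gene (rows) under AngII and under saline, by gate (panels), with 95% counting intervals; dashed lines mark 1.5-fold and open symbols are genes under the count or level minimum. In the SMC gate Gadd45b lay at 0.69 with AngII and 1.12 under saline, and in the fibroblast gate Trp53inp1 lay at −1.30 with AngII and −1.61 under saline.

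Over the 12 combinations of gate and comparison the genes behaved unevenly. Trp53inp1 was counted lower in 8 of the 10 combinations in which it had enough UMIs and higher in none. Gadd45b was counted higher in 5 of 12, Ddit4l in 4 of 7, Zmat3 in 3 of 10 and Mdm2 in 2 of 12, none of them ever lower. Cdkn1a was counted lower in 3 of 12 and Gadd45a in 2 of 11, neither ever higher, while Ccng1 and Phlda3 were each counted higher once. Bax passed 1.5-fold in none of 12. Over the same 12 combinations between 3.90% and 16.4% of all genes were higher and between 5.18% and 29.5% lower. Several Trp53inp1 calls were made against WT saline. Its calls for AngII in KO smooth muscle, KO fibroblasts and WT phagocytes fell under 1.5-fold under some alternatives. The 4 comparisons of a gate share libraries, so these counts are not independent.

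How the transcripts were spread over cells was examined next. In SMC as deposited, 61.7% of cells had a Cdkn1a UMI in KO AngII, 44.3% in KO saline, 53.1% in WT AngII and 68.3% in WT saline, but AngII libraries were deeper. Each cell was then thinned to 2000 UMIs, which left out 55 KO saline and 26 WT saline cells of this gate. The share with Cdkn1a was 28.1% in KO AngII, 22.8% in KO saline, 20.6% in WT AngII and 35.7% in WT saline, the same order of libraries as for the summed levels. Gadd45b was detected in 43.1% in KO AngII, 39.4% in KO saline, 27.6% in WT AngII and 20.2% in WT saline. Trp53inp1 was detected in 4.19% in KO AngII, 5.77% in KO saline, 3.58% in WT AngII and 19.4% in WT saline. The high level of Trp53inp1 in the WT saline library was thus spread over many SMC rather than a few.

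A gate without these genes is not known, so the gate with the lowest level serves as a guide to free RNA. Phlda3 was detected in 37.6% in KO AngII, 35.0% in KO saline, 38.0% in WT AngII and 31.8% in WT saline of thinned fibroblasts. In phagocytes thinned to the same 2000 UMIs the share was 3.58% in KO AngII, 3.66% in KO saline, 4.68% in WT AngII and 1.06% in WT saline. Ddit4l was detected in 0.866% in KO AngII, 0.913% in KO saline, 1.43% in WT AngII and 0.572% in WT saline of thinned SMC, and in phagocytes in 0.716% in KO AngII, 0.142% in WT AngII and no cell of the saline libraries. Those phagocytes had median depths of 7596 UMIs in KO AngII and 7905 in WT AngII before thinning, and SMC had 8726 in KO AngII and 10298 in WT AngII. The interval of the phagocyte share reached up to 1.82% in KO AngII, 4.40% in KO saline and 1.30% in WT saline. In these libraries the Ddit4l share of SMC thus cannot be told from background at this depth. In WT AngII that interval ended at 0.788%, under the SMC share.

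The variance of UMIs per cell over their mean, which is 1 for a count spread evenly by chance, was highest for Cdkn1a and Gadd45b in the fibroblast gate of each library. In thinned fibroblasts it was 2.28 in KO AngII, 2.61 in KO saline, 2.50 in WT AngII and 2.82 in WT saline for Cdkn1a. For Gadd45b it was 1.59 in KO AngII, 2.62 in KO saline, 2.10 in WT AngII and 2.39 in WT saline. Bax gave 1.08 in KO AngII, 0.977 in KO saline, 1.11 in WT AngII and 1.05 in WT saline, near an even spread, and Zmat3 values lay between 0.976 and 1.06. Phlda3 had intermediate values, from 1.30 in KO AngII to 1.52 in WT AngII. Mdm2 had 1.58 in KO AngII, close to the Gadd45b value there, and at most 1.20 in the other libraries. The highest count of Cdkn1a UMIs in a single SMC was 63 in KO AngII, 48 in KO saline, 57 in WT AngII and 37 in WT saline.

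**Figure D4:**
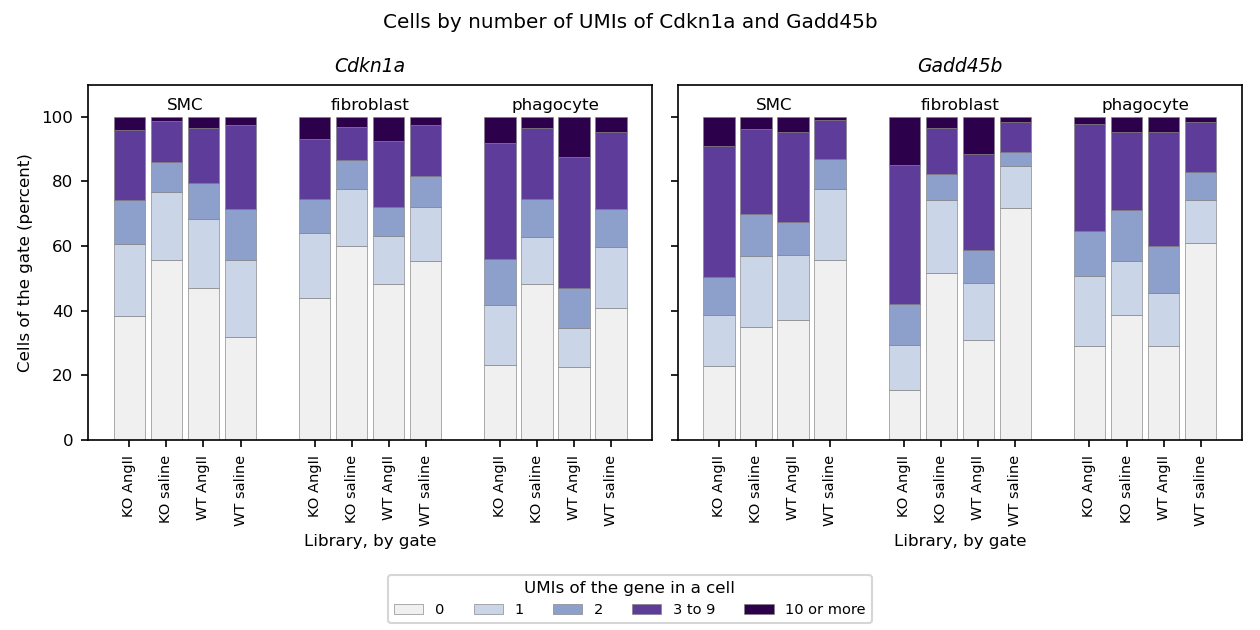
Share of cells (percent) with 0, 1, 2, 3 to 9 and 10 or more UMIs of Cdkn1a (left) and Gadd45b (right), each bar 1 library within a gate, at the depth deposited. The depth of AngII libraries raises their shares; in SMC, WT saline had the fewest cells with 0 Cdkn1a UMIs, 31.7%, against 38.3% in KO AngII, 55.7% in KO saline and 46.8% in WT AngII.

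In some libraries and gates, most often among fibroblasts, cells with Cdkn1a were also those with more of several other p53 targets. Within each library and gate, thinned cells with at least 1 Cdkn1a UMI were set against cells with none. In the fibroblast gate 4 of 7 genes with enough UMIs were at least 1.5-fold higher in KO AngII, beside 4.56% of all genes with enough UMIs. The same count was 1 of 3 in KO saline (beside 4.22%), 6 of 8 in WT AngII (3.91%) and 4 of 6 in WT saline (4.40%). None was lower. Of all genes with enough UMIs, 334 of 6386 were lower in KO AngII and 192 of 2821 in KO saline. In WT AngII 270 of 6218 were lower, and in WT saline 213 of 4611. With so few of the 10 genes tested, none lower says little beside these counts. In the SMC gate it was 2 of 9 in KO AngII (beside 3.35% of all genes), 1 of 9 in KO saline (2.42%), 4 of 9 in WT AngII (3.16%) and 1 of 8 in WT saline (1.39%). Phagocytes had enough UMIs for at most 3 genes, of which 0 of 3 were higher in KO AngII (beside 5.80%), 1 of 1 in KO saline (10.1%), 1 of 3 in WT AngII (6.89%) and 2 of 2 in WT saline (7.27%). Cells of 1 library are not replicates, and these counts describe 4 libraries.

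Phlda3 was higher in the fibroblasts and SMC with Cdkn1a in every library. Fibroblasts with a Cdkn1a UMI had 373 CPM of Phlda3 in KO AngII, and those without had 232 CPM, a log2 ratio of 0.68 (0.49 to 0.87). The ratio was 0.79 (0.42 to 1.16) in KO saline, 0.83 (0.64 to 1.02) in WT AngII and 0.84 (0.55 to 1.12) in WT saline. In SMC it was 0.59 in KO AngII, 0.50 in KO saline, 0.90 in WT AngII and 0.40 in WT saline, with all 4 intervals above 0. Bax had ratios of 0.44 in KO AngII, 0.28 in KO saline, 0.81 in WT AngII and 0.73 in WT saline in fibroblasts. With gates that exclude each other, an alternative chosen after seeing the data, the KO saline interval spanned 0 (−0.26 to 0.80) and the others lay above 0. In SMC those gates gave Bax 0.05 (−0.13 to 0.23) in KO AngII and 0.18 (0.03 to 0.32) in KO saline. They gave 0.50 (0.32 to 0.67) in WT AngII and 0.13 (−0.03 to 0.28) in WT saline. With the gates as first defined, Gadd45b had 0.41 in KO AngII, 0.81 in KO saline, 0.61 in WT AngII and 0.56 in WT saline in SMC, all with intervals above 0. Trp53inp1 had 0.31 in KO AngII, 0.00 in KO saline, −0.05 in WT AngII and 0.07 in WT saline in SMC, with every interval spanning 0, although WT saline was high in both genes. In fibroblasts Trp53inp1 was counted higher in the cells with Cdkn1a in WT AngII and in WT saline. With gates that exclude each other its ratios there were 1.61 (0.99 to 2.24) in WT AngII and 0.78 (0.13 to 1.43) in WT saline. Those of KO were 0.79 (−0.35 to 1.86) in KO AngII and −1.50 (−4.68 to 0.60) in KO saline. Gdf15, a secreted stress cytokine on the list of other p53 targets, had ratios of 1.45 in KO AngII, 2.78 in KO saline, 1.88 in WT AngII and 1.65 in WT saline in fibroblasts and of 0.87 in KO AngII, 1.09 in KO saline, 0.93 in WT AngII and 0.56 in WT saline in SMC. Its level in the fibroblast gate was under 10% of that in phagocytes. In SMC it was likewise scarcer than in phagocytes in each library. The part of phagocyte RNA or of doublets in the fibroblast and SMC ratios was not tested. With gates that exclude each other the Gdf15 ratios in fibroblasts were 1.32 in KO AngII, 2.78 in KO saline, 1.92 in WT AngII and 1.88 in WT saline. In SMC they were 0.82 in KO AngII, 1.06 in KO saline, 0.86 in WT AngII and 0.51 in WT saline. The immediate early gene Fos had 0.45 in KO AngII, 0.52 in KO saline, 0.46 in WT AngII and 0.35 in WT saline in SMC, so cells with Cdkn1a also held more of it.

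A small number of cells held much more Cdkn1a. At least 5 of 2000 thinned UMIs were from Cdkn1a in 21 of 5660 SMC in KO AngII (0.371%, exact binomial interval 0.230% to 0.567%), 28 of 10295 in KO saline (0.272%, 0.181% to 0.393%), 32 of 5889 in WT AngII (0.543%, 0.372% to 0.766%) and 34 of 7520 in WT saline (0.452%, 0.313% to 0.631%). The intervals of the 4 libraries overlapped one another. Fibroblasts had such cells at 1.06% in KO AngII, 1.83% in KO saline, 1.18% in WT AngII and 2.53% in WT saline. Phagocytes had 18 in KO AngII, 23 in WT AngII and 11 in WT saline, and 0 of 82 in KO saline, which allows a share of up to 3.66% by a floor of 3 cells and of up to 4.40% by the exact binomial interval. The SMC were deeper before thinning than SMC with no Cdkn1a UMI, with median UMIs of 12284 against 8982 in KO AngII, 8130 against 6482 in KO saline, 12839 against 10138 in WT AngII and 6689.5 against 6167 in WT saline. Of them, 0 in KO AngII, 1 in KO saline, 4 in WT AngII and 3 in WT saline also had at least 10 Dcn and Lum UMIs.

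In these SMC Phlda3 was at 333 in KO AngII, 357 in KO saline, 562 in WT AngII and 176 in WT saline (CPM). In SMC with no Cdkn1a UMI it was at 62.1 in KO AngII, 56.0 in KO saline, 79.2 in WT AngII and 47.7 in WT saline. The log2 ratios were 2.43 (1.54 to 3.19) in KO AngII, 2.67 (1.96 to 3.31) in KO saline, 2.83 (2.30 to 3.31) in WT AngII and 1.89 (0.92 to 2.71) in WT saline. They rest on 14 Phlda3 UMIs in KO AngII, 20 in KO saline, 36 in WT AngII and 12 in WT saline. Ccng1 had ratios of 1.90 in KO AngII, 2.52 in KO saline and 2.34 in WT AngII but 0.16 (−2.13 to 1.72) in WT saline. Gdf15 had 2.52 in KO AngII, 2.26 in KO saline and 3.27 in WT AngII and again 0.16 in WT saline, there from 1 UMI. Mdm2 had 2.75 (1.52 to 3.76) in KO AngII, 0.52 (−2.53 to 2.39) in KO saline, 1.61 in WT AngII and 3.01 (2.15 to 3.76) in WT saline. In fibroblasts the Phlda3 ratio was 1.74 in KO AngII, 2.0 in KO saline, 2.31 in WT AngII and 2.36 in WT saline. With gates that exclude each other, an alternative chosen after seeing the data, it was 2.52 in KO AngII, 2.73 in KO saline, 3.01 in WT AngII and 1.47 in WT saline for SMC and between 1.80 and 2.35 for fibroblasts. With those gates Mdm2 turned to −0.42 (−5.73 to 2.06) in KO saline SMC, from 1 UMI, and Gdf15 had 0 UMIs in the WT saline SMC with at least 5 Cdkn1a UMIs.

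The richest Mdm2 cells, picked after their values were seen, give examples of the counts in single cells. A KO AngII smooth muscle cell of 20629 UMIs held 38 Mdm2, 63 Cdkn1a, 20 Phlda3 and 9 Ccng1 UMIs. A KO AngII fibroblast of 10838 UMIs held 47 Mdm2, 25 Cdkn1a, 18 Phlda3 and 23 Ccng1 UMIs. A WT saline smooth muscle cell of 6731 UMIs held 32 Mdm2 and 10 Cdkn1a UMIs but only 2 of Phlda3 and 1 of Ccng1. The pair of KO AngII cells thus carried all 4 transcripts in numbers.

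**Figure D5:**
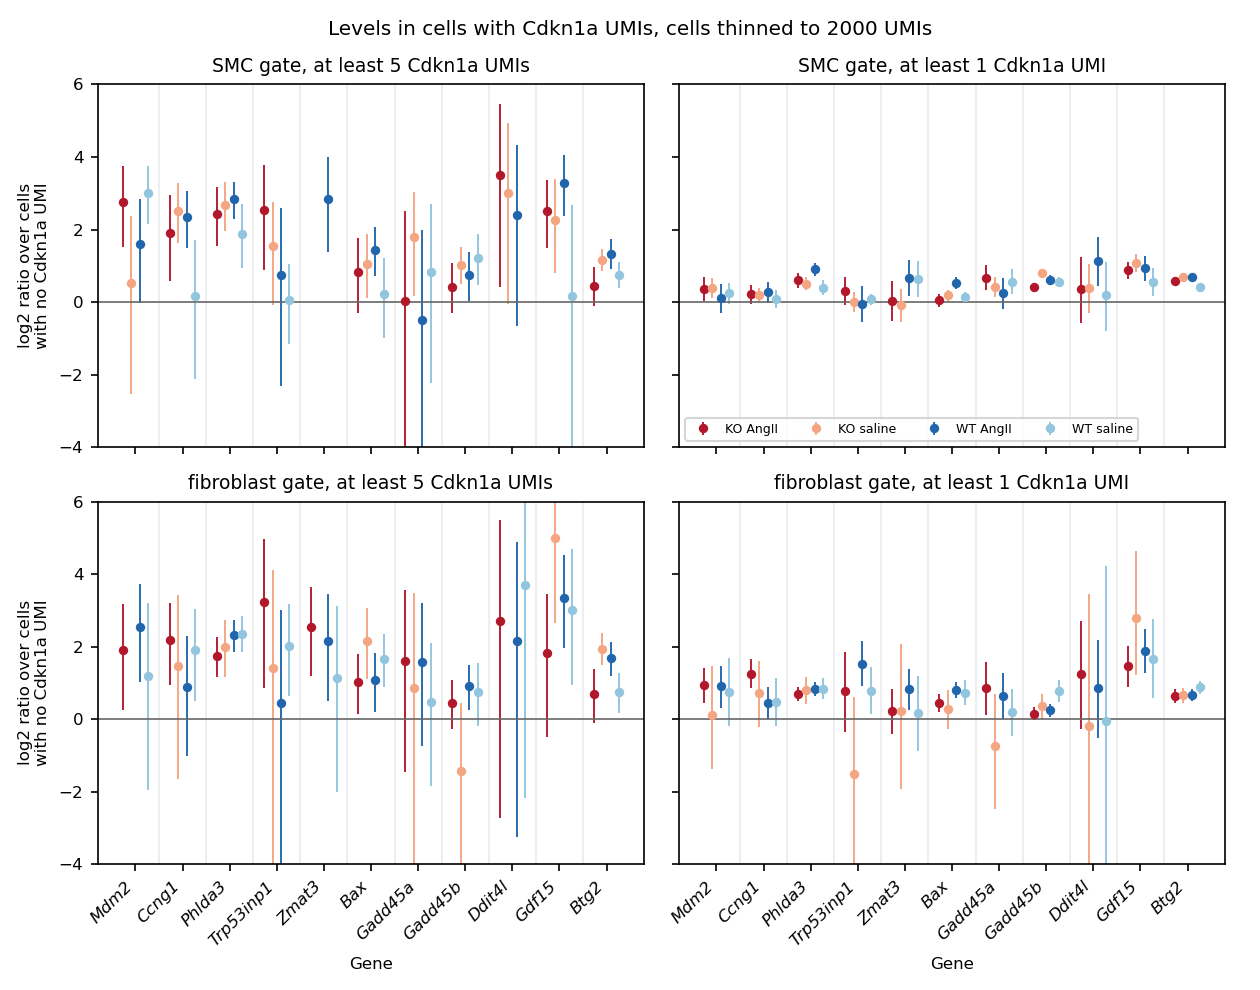
Log2 ratio of each gene in cells with at least 5 (left) or at least 1 (right) Cdkn1a UMI over cells with none, after thinning to 2000 UMIs, in the SMC (top) and fibroblast (bottom) gates, with 95% counting intervals cut at the axis ends; genes with 0 UMIs are not drawn. Phlda3 lay between 1.74 and 2.83 in the left panels and between 0.40 and 0.90 in the right ones.

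Other genes of the pathway were taken from lists fixed with earlier results known. Those named were 1.5-fold apart the same way in both genotypes or were among the farthest in 1 comparison, and their log2 ratios are of AngII over saline unless stated otherwise. Of the regulators of p53 (12 listed, 11 in the files), 2 of 10 were higher and 2 lower with AngII in KO smooth muscle, and 1 of 9 higher and 3 lower in WT. In this gate 8.69% of all genes were higher and 19.1% lower in KO, and 10.6% higher and 16.9% lower in WT, and the counts of the lists below are to be read beside these shares. Chek1, a DNA damage checkpoint kinase, had log2 ratios of 1.47 in KO and 0.65 in WT, and Atr, the kinase above it, had −0.78 in KO and −0.83 in WT. The list of 10 cycling genes stood at 167 CPM in SMC in KO AngII, 39.8 in KO saline, 89.0 in WT AngII and 44.1 in WT saline, and its part in the Chek1 values was not tested. Ppm1d, a phosphatase that shuts p53 signalling off and is itself a p53 target, had −1.46 in KO and −1.31 in WT phagocytes. Chek2 was lower in KO AngII than in WT AngII, at 2.84 against 6.63 CPM in SMC, a ratio of −1.22.

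The other p53 targets (34 listed, 33 in the files) went both ways. In SMC 5 of 30 were higher and 6 lower with AngII in KO, and 8 of 29 higher and 7 lower in WT, with medians of −0.19 in KO and −0.03 in WT. The lower counts were near the 19.1% of all genes in KO and the 16.9% in WT. Tnfrsf10b, a death receptor for TRAIL, had 14.2 CPM in KO AngII and 7.09 in KO saline, and 12.8 in WT AngII and 6.58 in WT saline, with ratios of 1.0 in KO and 0.96 in WT. Psrc1, a spindle protein, had ratios of 1.95 in KO and 2.40 in WT, and the cycling list was higher in the same libraries, as given for Chek1. Eda2r, a receptor for ectodysplasin A2, had 1.24 in KO and 1.38 in WT. Ddit4, the mTORC1 inhibitor related to Ddit4l, had 0.67 in KO and 0.88 in WT. Among those lower in both genotypes, Xpc, Ddb2 and Ercc5 encode proteins of nucleotide excision repair. Xpc had −1.11 in KO and −0.82 in WT, Ddb2 −1.23 in KO and −1.22 in WT, and Ercc5 −0.60 in KO and −0.62 in WT. The antiproliferative gene Btg2 had −0.70 in KO and −0.93 in WT, and Trp53i11 had −0.85 in KO and −0.62 in WT. Perp, a membrane protein of cell junctions, was lower in WT AngII than in WT saline (−1.34).

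In fibroblasts 6 of 30 other targets were higher and 11 lower with AngII in KO, and 12 of 28 higher and 5 lower in WT. Of all genes in this gate 14.0% were higher and 29.5% lower in KO, and 14.6% higher and 21.2% lower in WT. The polo-like kinase Plk2 had 53.6 CPM in KO AngII and 21.0 in KO saline, and 60.3 in WT AngII and 15.1 in WT saline, with ratios of 1.35 in KO and 2.0 in WT. Plk3 had ratios of 1.49 in KO and 0.61 in WT, Tnfrsf10b 1.49 in KO and 2.02 in WT, and the adenylate kinase Ak1 0.65 in KO and 1.37 in WT. Perp was lower, with −1.79 in KO and −2.13 in WT, and so was the sestrin Sesn1, with −1.46 in KO and −0.92 in WT. Btg2 had −1.68 in KO and −0.63 in WT, Xpc −1.25 in KO and −1.07 in WT, and Ercc5 −1.18 in KO and −0.63 in WT, so that Btg2, Xpc and Ercc5 were lower with AngII in both gates and genotypes. The TMM shifts given for each gate would bring some of these ratios under 1.5-fold. These are Btg2 in WT fibroblasts and Ercc5 in WT fibroblasts and in SMC of both genotypes. Between KO AngII and WT AngII the epoxide hydrolase Ephx1 and the metalloreductase Steap3 were lower in KO, with ratios of −1.10 for Ephx1 and −0.96 for Steap3. In phagocytes 3 of 20 other targets were higher and 7 lower in KO, and 2 of 22 higher and 8 lower in WT, beside 16.4% higher and 15.9% lower of all genes in KO and 13.2% higher and 16.1% lower in WT. Ddit4 had ratios of 2.63 in KO and 1.04 in WT there, and Btg2 −1.60 in KO and −0.76 in WT.

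Comparing KO with WT in SMC, 8 of 30 other targets were higher and 1 lower under saline, and 5 of 31 were higher and none lower with AngII. The shares of all genes were 6.62% higher and 5.59% lower under saline, and 4.87% higher and 5.18% lower with AngII. Bbc3, which encodes the death activator PUMA, had 18.6 CPM in KO saline and 8.81 in WT saline, a ratio of 1.08 (0.92 to 1.23). Gdf15 had 64.2 CPM in KO AngII and 29.8 in WT AngII, a ratio of 1.11 (1.03 to 1.19). Perp was the lower one under saline (−1.04).

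The BCL2 family, which decides on mitochondrial cell death, had 10 genes listed and 9 in the files. In SMC 2 of 9 were higher and 4 lower with AngII in KO, beside 8.69% and 19.1% of all genes. In WT 1 of 9 was higher and 4 were lower, beside 10.6% and 16.9%. Bmf, a BH3-only activator of death, had 0.986 CPM in KO AngII and 6.14 in KO saline, and 1.78 in WT AngII and 9.38 in WT saline, with ratios of −2.64 in KO and −2.40 in WT. Bcl2l11, which encodes the activator BIM, had −0.73 in KO and −0.88 in WT. The survival gene Bcl2 had −0.83 in KO and −0.60 in WT, while the activator Bid had 1.0 in KO and 0.71 in WT. In fibroblasts 3 of 8 genes were higher and 3 lower in KO (beside 14.0% and 29.5% of all genes), and 1 of 9 higher and 4 lower in WT (beside 14.6% and 21.2%). Bcl2 had −1.33 in KO and −1.15 in WT there, the activator Bik −2.77 in KO and −1.68 in WT, and the pore-forming Bak1 1.01 in KO and 0.71 in WT. In phagocytes 3 of 8 were higher and none lower in KO (beside 16.4% and 15.9%), and 2 of 8 higher and 1 lower in WT (beside 13.2% and 16.1%). Bcl2l11 went the other way from SMC there, with 2.69 (1.12 to 4.98) in KO and 0.63 (0.15 to 1.13) in WT. Under saline Bcl2l1, a survival gene, was lower in KO SMC than in WT SMC (−0.65), and with AngII Bmf was lower in KO SMC than in WT SMC (−0.85).

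The relatives of p21 in cell cycle control went both ways. Of 11 CDK inhibitors and partners, 4 were higher and 1 lower with AngII in KO smooth muscle, beside 8.69% and 19.1% of all genes, and 3 higher and 3 lower in WT, beside 10.6% and 16.9%. Cdkn1b, which encodes the inhibitor p27, had 14.9 CPM in SMC in KO AngII and 55.9 in KO saline, and 18.3 in WT AngII and 42.0 in WT saline, with ratios of −1.91 in KO and −1.20 in WT. In fibroblasts Cdkn1b had −1.87 in KO and −0.79 in WT, and Cdkn1c, the inhibitor p57, had −2.0 in KO and −1.50 in WT. Cdkn2b, the inhibitor p15, was higher in SMC, with 1.03 in KO and 1.58 in WT. The cyclin E genes were higher too, Ccne1 with 1.08 in KO and 1.47 in WT and Ccne2 with 1.65 in KO and 1.76 in WT. The cycling list given for Chek1 was higher in the same libraries of this gate. In the fibroblast gate it stood at 311 CPM in KO AngII, 42.0 in KO saline, 188 in WT AngII and 20.9 in WT saline, and its part in the cyclin E and Psrc1 values was not tested. In fibroblasts Ccne2 had 1.73 in KO and 1.67 in WT, and Ccne1 had 4.24 (1.74 to 9.55) in KO and no UMI in WT saline. Gadd45g, the third Gadd45 gene, had −0.76 in KO and −0.75 in WT fibroblasts, and was higher in KO AngII than in WT AngII in SMC (0.83). In phagocytes Cdkn1b was lower with AngII in KO (−2.20), and Cdk4 was higher with AngII in WT (0.76).

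Across the 12 combinations of library and gate, the genes whose log2 level was most like that of Cdkn1a, of 7605 ranked, were Abca1 (Pearson's r 0.926), Nxt1 (0.921), N4bp2l1 (0.918), Rab10os (0.916) and Brms1 (0.914). The 12 points share 4 libraries, and the values are a description. The other 9 p53 targets had lower values, with Bax at 0.64, Mdm2 at 0.60, Trp53inp1 at −0.14, Phlda3 at −0.49 and Ccng1 at −0.62. Phlda3 was thus higher in the cells with Cdkn1a within the SMC and fibroblast gates. Over gates and libraries its level did not follow that of Cdkn1a. The transcripts Rab26os and Ptcra, taken along as companions of a stress state, summed to 13.5 CPM in SMC in KO AngII, 15.0 in KO saline, 15.7 in WT AngII and 13.9 in WT saline. The ATF4 stress list summed to 470 in KO AngII, 458 in KO saline, 437 in WT AngII and 444 in WT saline.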

How the data were processed

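The deposited values are raw UMI counts (whole numbers, not normalized) for each gene in each cell, as read from the values. Per the submitters' processing notes Cell Ranger and mm10 were used; their version, the annotation and any cell filter: not given in the sources used here. Per the labels' protocols fat was removed from the aorta, tissue was digested with enzymes, viable cells were sorted after DAPI staining and captured with the 10x 3′ kit. Total deposited counts were 94698727 (KO AngII), 76841976 (KO saline), 90581097 (WT AngII) and 60064038 (WT saline).

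Cells under 500 genes or over 20% mitochondrial UMIs were dropped (11 in KO AngII, 29 in KO saline, 20 in WT AngII, 19 in WT saline); doublets were not removed. UMIs were summed per library and gate and divided by the gate total to give CPM. Ratios have exact conditional (Clopper-Pearson) intervals, levels exact Poisson and shares exact binomial ones, in Python 3.11.15 with numpy 2.4.6 and scipy 1.17.1; TMM factors came from edgeR 4.0.16 in R 4.3.3. The interval and count steps were tested on simulated data. A gene was eligible with 50 UMIs over both libraries and at least 10% of its highest gate level in the higher library, a limit on free RNA. A called difference was at least 1.5-fold. UMIs tag transcript ends, and levels of different genes were not compared. Fewer cells with a transcript and less transcript per cell were not separated. The share of thinned cells with a UMI falls with either.

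The genes, gates, lists and naming rule were chosen with earlier results of these data known. Named beside the 10 genes were list members at least 1.5-fold apart the same way in both AngII comparisons of a gate or, per comparison and gate, the 2 with the interval farthest from 0 in each direction, and the 5 genes most correlated with Cdkn1a; not all of them are printed. Alternatives were scaling (TMM, median of ratios), all deposited cells, gates that exclude each other, other count minimums, thinning, depth limits and equal cell weights. One alternative, exclusive gates for cells with Cdkn1a, was added after seeing the data.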

Additional observations from a re-analysis of the deposited data

Results flagged for a closer look

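Effects of AngII over saline pointed in opposite directions in KO and WT for 3 combinations of gene and gate, with counting intervals on opposite sides of 0. Each genotype is 1 library per treatment, and the difference between genotypes was not tested. In smooth muscle Cdkn1a had a log2 ratio of 0.32 in KO and −0.85 in WT, a difference of 1.17, and Mdm2 had 0.15 in KO and −0.13 in WT, a difference of 0.28. In phagocytes Gadd45b had −0.44 in KO and 0.39 in WT, a difference of −0.83. All 3 WT values use WT saline, the library with the high glucocorticoid list, and the phagocyte value in KO uses 83 KO saline cells.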

How the results depend on the processing

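Results were recomputed under 11 alternatives planned for the log2 ratios and counts. Of the recomputed log2 ratios 880 moved by less than their counting interval, 169 by more, and 2 called ones turned, both in thinned cells: Ddit4l in KO smooth muscle (AngII over saline −0.064, against 0.75) and Ccng1 in WT phagocytes (−0.17, against 0.76). The number of genes at least 1.5-fold apart stayed within 1.5 times the reported count in 94 of 120 cases. For AngII over saline in KO smooth muscle the 2 genes became 1 with a mean of at least 10 CPM, 0 in thinned cells and 0 with cells weighing equally. For KO AngII over WT AngII the 1 gene in smooth muscle became 2 in thinned cells, and the 1 in fibroblasts 2 with TMM, with median-of-ratios scaling and with cells weighing equally. The 3 for KO saline over WT saline in fibroblasts became 1 without cells under 4000 UMIs. In phagocytes, WT AngII over WT saline had 2 and gave 4 with either scaling and without the 5% deepest cells, and 1 with exclusive gates and in thinned cells. KO AngII over KO saline had 1 and gave 2 in thinned cells, without the deepest cells and with cells weighing equally. KO saline over WT saline had 1 and gave 0 with median-of-ratios scaling, exclusive gates and no cells under 4000 UMIs, 2 in thinned cells and with equal weights, 3 with the mean minimum and 4 with no minimum. KO AngII over WT AngII had 0 and gave 1 with no minimum, without the deepest cells and with equal weights. The causes were not tested. Shares of cells with a UMI depend on the depth thinned to: 103 of 120 moved at 4000 UMIs. No paired analysis was possible because each group is 1 library. Counts under 50 UMIs limit some ratios, mostly in phagocytes of KO saline and WT saline, and for fewer genes in saline fibroblasts.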
